A study of Mus musculus with 6 samples.

Results

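Klf2 and Klf4 are a pair of zinc finger transcription factors of the Krüppel-like family, here followed in endothelial cells of mice exposed to tobacco smoke. They are 2 of the 11138 genes with a single symbol on the arrays, found by their symbol in the probe table, and each was printed as 2 spots. The pair was chosen by its log2 ratios at 1 week, which had opposite signs. The 1-week values of the pair are therefore given as a description without a test, and only its 6-week values are tested. Other genes were tested at both times.

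Krüppel-like factors bind CACCC and GC-rich DNA through a trio of zinc fingers at the carboxy end of the protein. In endothelial cells, steady laminar flow activates the kinases MEK5 and ERK5, which act through MEF2 factors to switch on Klf2 and Klf4. Both then raise genes that keep vessels open and free of clots, such as Nos3 and Thbd, and lower genes of adhesion and constriction. They are known to overlap in function and to stand in for each other in part in adult endothelium.

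Gene expression was measured on 6 arrays of 2 channels, with total RNA from smoke-exposed mice in channel 1 and from control mice in channel 2. The 1-week arrays are described as sorted endothelial cells and the 6-week arrays only as endothelium. The 1-week exposure has 3 arrays (replicates 1 to 3, replicate 1 dye-reversed), whose control has no stated duration. The 6-week exposure has 2 arrays with 1-week control RNA (replicate 2 dye-reversed) and 1 array with 6-week control RNA. The labels name no strain, sex, age of the mice, tissue, sorting marker or smoke dose, and say neither whether mice were pooled nor whether separate animals stand behind repeated arrays. All p-values here describe the spread between arrays, which may be technical. The 2 arrays of 6-week smoke and 1-week control, a dye swap, entered as their mean. The 6-week comparison therefore had 2 replicates. The 1-week dye reversal entered alone, because no label says whose RNA it repeats. The 1-week and 6-week comparisons may share 1-week control RNA, so their values are given side by side and no likeness between them is read as support.

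No label states which RNA is the numerator. Channel 1 is labelled smoke on all 6 arrays, the dye-reversed ones included, so all keep their deposited sign here, and positive values are read as likely higher after smoke. The labels do not say if dye-reversed ratios were turned before deposit. Among the 5625 named genes with spots under 1 log2 unit apart on each array (genes with agreeing spots), the 6-week dye reversal correlated at r = 0.045 with its unreversed partner and at r = 0.429 with the 1-week dye reversal. The unreversed 1-week arrays correlated at r = 0.387 with each other, and with the 1-week dye reversal at r = 0.185 and r = 0.231. These correlations run across genes, which are not independent replicates. Over all named genes with 2 spots, the spots of an array correlated between r = 0.209 and r = 0.420.

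The stretch just upstream of each start site is shown because the pathway from flow to MEF2 is thought to act on both promoters. The sequences are the 250 bases before the start site from RefSeq, build GRCm38.p6, matched by symbol for both genes. Klf2 lies on chromosome 8, and its stretch covers chr8:72318812-72319061 on the plus strand. Klf4 lies on chromosome 4, and its stretch covers chr4:55532476-55532725 on the minus strand. Capitals mark matches to the MEF2 consensus and to CACCC on either strand (GGGTG where it reads on the other).
Klf2: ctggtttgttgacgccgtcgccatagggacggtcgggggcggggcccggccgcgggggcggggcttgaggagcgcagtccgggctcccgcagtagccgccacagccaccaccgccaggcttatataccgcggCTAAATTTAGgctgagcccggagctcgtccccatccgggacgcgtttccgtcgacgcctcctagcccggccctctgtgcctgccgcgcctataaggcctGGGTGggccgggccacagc
Klf4: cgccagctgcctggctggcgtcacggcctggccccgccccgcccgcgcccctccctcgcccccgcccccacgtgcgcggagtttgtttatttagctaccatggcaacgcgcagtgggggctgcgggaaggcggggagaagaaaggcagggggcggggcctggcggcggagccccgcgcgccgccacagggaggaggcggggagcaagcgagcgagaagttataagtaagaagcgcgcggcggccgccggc

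The Klf2 stretch held 1 match to the MEF2 consensus, CTAAATTTAG, from 118 to 109 bases before the start site, and the Klf4 stretch held 0. Such a match was present in 2.92% of the 32851 promoter stretches of the same length. The Klf2 stretch also held 1 CACCC match, read as GGGTG 19 to 15 bases before the start, and the Klf4 stretch held 0, where 52% of all stretches had one. GC boxes, searched as GGGCGG on both strands, numbered 2 for Klf2 and 4 for Klf4, where 32.7% of all stretches held at least 1. In G and C content the stretches were alike, at 71.2% for Klf2 and 74% for Klf4. A match describes letters and not a bound site, and a stretch without one says nothing about the factor.

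Klf2, the factor most closely tied to laminar flow, had log2 ratios of -1.64 (replicate 1, dye-reversed), -1.11 (replicate 2) and -1.26 (replicate 3) after 1 week of smoke. All 3 arrays lay well below 0, the dye-reversed array lowest. Their mean was -1.34 ± 0.28 (SD, n = 3), likely 2.52-fold lower after smoke, which placed Klf2 as the 21st most negative of the 11138 named genes. At 6 weeks the ratios were 0.57 and 0.01 (dye-reversed) against 1-week control and 0.40 against 6-week control. No 6-week array was below 0, and the highest 1-week array lay more than 1 log2 unit under the lowest 6-week array.

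Klf4, which shares many targets with Klf2 and also marks quiescent endothelium, had log2 ratios of 0.91 (replicate 1, dye-reversed), 0.87 (replicate 2) and 0.70 (replicate 3) at 1 week. Their mean was 0.83 ± 0.11 (SD, n = 3), likely 1.77-fold higher after smoke. At 6 weeks it had 0.66 and 0.89 (dye-reversed) against 1-week control and 1.00 against 6-week control. All 6 arrays were positive, and the values of the 2 exposure times overlapped.

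**Figure D1:**
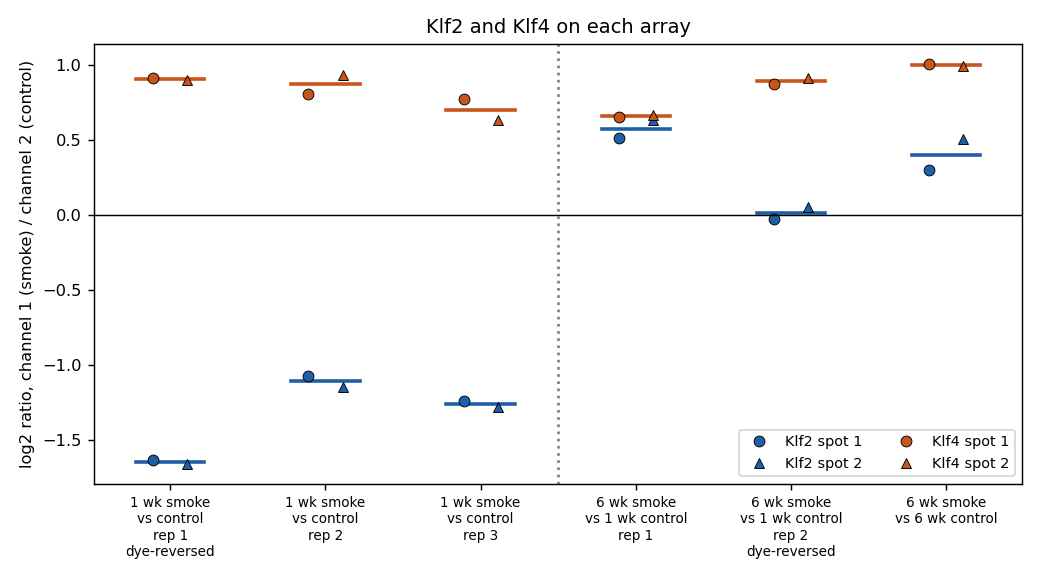
Log2 ratio of smoke over control (vertical axis) for each spot of Klf2 and Klf4 on each of the 6 arrays (horizontal axis), with a bar at the mean of the 2 spots. The mean of the spots lies between 0.66 and 1.00 on all arrays for Klf4, while for Klf2 it lies between -1.64 and -1.11 at 1 week and between 0.01 and 0.57 at 6 weeks.

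Both spots of each gene gave similar values. The spots of Klf2 read -1.63 and -1.66, -1.07 and -1.14, and -1.24 and -1.28 on 1-week replicates 1 to 3. At 6 weeks they read 0.52 and 0.63, then -0.03 and 0.06 on the dye reversal, against 1-week control, and 0.30 and 0.51 against 6-week control. One Klf2 spot was thus just below 0 on the 6-week dye reversal. The spots of Klf4 lay within 0.14 log2 units of each other on every array, and those of Klf2 within 0.21. Over the 10180 named genes with 2 spots, the median of that largest difference was 0.91, and 0.609% of them had a smaller one than Klf4 and 1.95% a smaller one than Klf2. Signal intensities were not used here, so how far either gene stood above background is unknown.

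**Figure D2:**
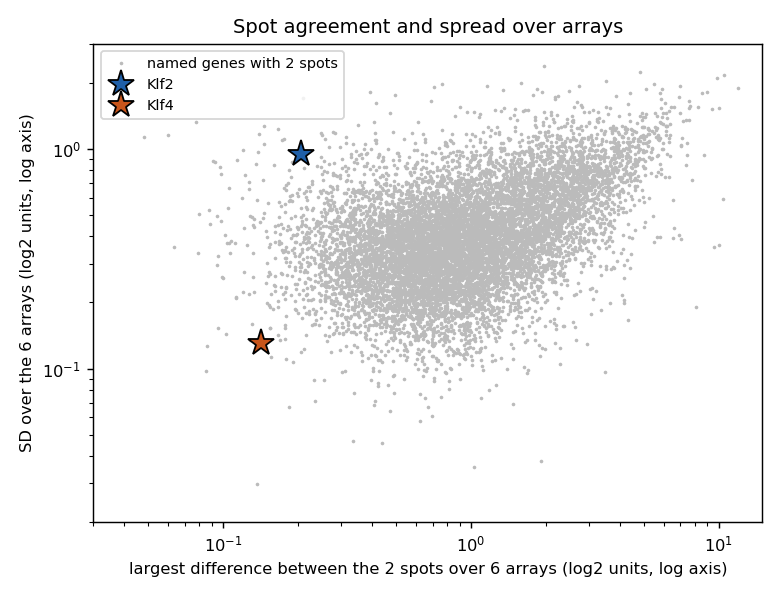
Largest difference between the 2 spots of a gene over the 6 arrays (horizontal, log axis, log2 units) against the SD of the gene over the 6 arrays (vertical, log axis, log2 units), one grey point per named gene with 2 spots; 3 genes lie outside the axes. Klf2 and Klf4 both sit at the left edge, with spots within 0.21 and 0.14, while Klf2 has an SD of 0.95 and Klf4 one of 0.13.

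The spread over arrays set the pair apart from each other. Over all 6 arrays Klf4 covered 0.34 log2 units with an SD of 0.13, and 1.83% of named genes had a smaller SD. Klf2 covered 2.22 log2 units with an SD of 0.95, and 95.2% of named genes had a smaller SD, where the median over named genes was 0.39. Both figures include the 1-week values that chose the pair. Ranked within each array, Klf4 stood between the 90.3th and the 98.2th percentile of named genes. Klf2 stood between the 0.359th and the 3.37th percentile on the 1-week arrays, and at the 89.7th, 53.3th and 84.1th on the 6-week arrays in the order given above.

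Within an array Klf4 exceeded Klf2 on all 6. On the 1-week arrays this follows from the opposite signs that chose the pair. With the other sign on the dye-reversed arrays, Klf2 would be the higher of the pair on each of them. The gap, a difference of log2 ratios and not of levels, was 2.55, 1.98 and 1.96 on 1-week replicates 1 to 3. At 6 weeks it was 0.09 and 0.88 (dye-reversed) against 1-week control and 0.60 against 6-week control. On the unreversed array against 1-week control the ratios of both genes were nearly equal, at 0.57 for Klf2 and 0.66 for Klf4.

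Whether exposure for 6 weeks changed either gene was tested with limma on all 19242 features, each unnamed feature on its own. Klf4 had a 6-week mean of 0.89 ± 0.19 (SE from the spread pooled over all 5 replicates), likely 1.85-fold higher after smoke, with an unadjusted 95% interval of 0.42 to 1.36. It was positive in 3 of 3 arrays and did not pass, with a Benjamini-Hochberg adjusted p of 0.957. Klf2 had a mean of 0.35 ± 0.21, an interval from -0.18 to 0.88 and an adjusted p of 1, an interval that holds no change and reaches a 1.84-fold higher level. It too was positive in 3 of 3 arrays, and its mean was 0.21 without replicate 1 against 1-week control. By size of the 6-week mean, Klf4 was the 89th highest of the named genes and Klf2 the 1094th.

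No feature passed this test at 6 weeks (0 of 19242, 0%), while 2.18% of features were positive and 1.94% negative with an unadjusted p under 0.05, Klf4 among the positive and Klf2 in neither group. Without moderation across features 5 passed, and with robust moderation 0. Among genes with agreeing spots, 12 of 5625 passed at 6 weeks (0.213%), against 0 with the 6-week dye reversal turned. Neither Klf4, with an adjusted p of 0.139, nor Klf2, with 0.753, was among these 12. With the 2 arrays of exchanged dyes counted as separate replicates in that fit, which treats technical repeats as independent, Klf4 reached an adjusted p of 0.0426 at a mean of 0.85, and Klf2 had 0.65.

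Dye orientation splits the arrays at both times, so values within each orientation are given. On the arrays without reversal Klf2 had a mean of -1.18 at 1 week (2 arrays) and 0.49 at 6 weeks (2 arrays). On the reversed arrays it had -1.64 and 0.01, 1 array each. The step from 1 to 6 weeks was 1.67 log2 units without and 1.66 with reversal. Klf4 had 0.79 and 0.83 without reversal and 0.91 and 0.89 with it, steps of 0.04 and -0.02. If both reversed arrays were given the other sign, the 1-week means would be -0.24 for Klf2 and 0.22 for Klf4, and the 6-week means 0.34 and 0.44. The sign of each mean held under that choice, but not the signs of single arrays. Klf2 would then stand at 1.64 on the 1-week reversal and -0.01 on the 6-week reversal, a step of -1.66, opposite to the step on the unreversed arrays. Klf4 would stand at -0.91 and -0.89 there. The like steps of both orientations and the order of the Klf2 arrays thus rest on the deposited sign. So do the 1-week sizes, the positive Klf4 value on all 6 arrays and its excess over Klf2 on all 6.

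The control also differed between 6-week arrays. Against 1-week control, the dye pair averaged 0.29 for Klf2 and 0.78 for Klf4. Against 6-week control, the single array gave 0.40 and 1.00. The age of the control and the pairing of arrays cannot be told apart here with 1 array against 6-week control.

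As a check on what else of this kind the arrays hold, 536 of the named genes (4.81%) had every 1-week array below every 6-week array, as Klf2 did. A negative ratio on every 1-week array with a positive one on every 6-week array, the pattern of Klf2, was held by 139 genes (1.25%), and the reverse by 168 (1.51%). A positive ratio on all 6 arrays, the pattern of Klf4, was held by 361 genes (3.24%). Ratios above 0.5 on all 6 arrays were found in 20 genes (0.18%), Klf4 among them. Nothing is read from these shares about the pair, since the 1-week values chose it.

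Of the KLF and SP family, which shares the zinc fingers, 18 of 25 listed genes were on the arrays, the pair included. Among the other 16, Sp6, a factor of teeth and skin appendages, was the most positive at 1 week, with 0.62, 0.65 and 0.53 on replicates 1 to 3, though its spots were up to 1.11 log2 units apart. Sp4, a neuronal factor, was the most negative at a mean of -0.49, with -0.03, 0.11 and -1.56, so 1 array made that mean. Klf2 therefore lay below, and Klf4 above, every other measured member of the family at 1 week. Since the 1-week values chose the pair, this order is only a description. It also rests on the deposited sign, as the 1-week means would be -0.24 for Klf2 and 0.22 for Klf4 with both dye reversals turned.

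Among those 16 genes, 6 were positive and 10 negative at 1 week (median -0.03), and 10 were positive and 6 negative at 6 weeks (median 0.15), against medians of -0.01 and -0.01 over all named genes. None passed limma's test over all features at either time (0 of 19242 features at 1 week, 0%). An unadjusted p under 0.05 was reached by 2 of them at 1 week, Sp3 and Sp6, both positive, where the share over all features was 3.53% positive and 3.12% negative. At 6 weeks it was reached by Sp1 and Sp3, 2 of 16, both positive, where the share over all features was 2.18% positive and 1.94% negative.

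Sp3, a ubiquitous GC-box factor, had 0.63, 0.49 and 0.41 at 1 week and 1.10, 0.59 (dye-reversed) and 0.39 at 6 weeks, with spots up to 1.04 apart. Sp3 and Klf9 were the only other measured members positive on all 6 arrays, 2 of 16 against 3.24% of named genes. Klf9, induced by glucocorticoids, had smaller values, between 0.07 and 0.48. Sp1, the founding GC-box factor, was near 0 at 1 week, with -0.02, 0.02 and -0.21, and stood at 0.82, 0.42 and 0.40 at 6 weeks. Sp1 and Sp5 were the other members whose 1-week arrays all lay below the 6-week arrays, 2 of 16 against 4.81% of named genes. The Sp5 order rested on values down to 0.00 and up to 2.25 at 6 weeks, with spots up to 1.32 apart.

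The other Krüppel-like factors had mixed signs. Klf6, an early response factor of injured vessels, had 0.02, 0.25 and 0.83 at 1 week and 0.43, -0.08 and 0.29 at 6 weeks. Klf13, which acts in lymphocytes, ran from -1.25 to 0.48 over the 1-week arrays alone. Klf5, of smooth muscle and gut, had a mean of -0.03 at 1 week and 0.30 at 6 weeks. Klf10, a TGF-beta target, had -0.14 and -0.39. Klf12, a repressor, had means of 0.52 and 0.38, with 1 array at 1.65 making the first. The remaining members, Klf1, Klf3, Klf7, Klf15 and Klf17, had 1-week means between -0.32 and 0.15 and 6-week means between -0.47 and 0.18.

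**Figure D3:**
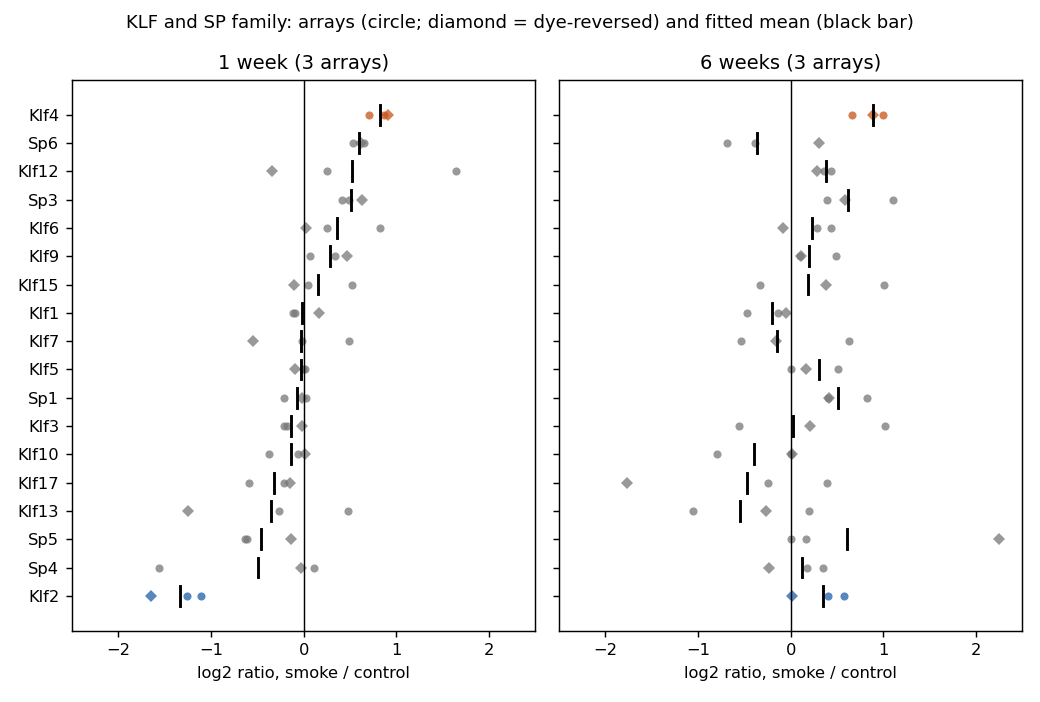
Log2 ratio of smoke over control (horizontal axis) for the 18 measured KLF and SP genes (vertical axis), ordered by the 1-week mean; points are arrays, diamonds are dye-reversed arrays, and black bars are the means of the fit. Klf2 and Klf4, chosen by their 1-week values, lie at the ends of the order at 1 week. At 6 weeks Klf4 keeps the highest mean while Klf2 lies within the range of the others.

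Genes that act upstream of the pair had mixed signs. Of 27 listed genes 17 were measured, with 10 positive and 7 negative at 1 week (median 0.04) and 11 positive and 6 negative at 6 weeks (median 0.05). None passed over all features at either time, or among genes with agreeing spots. Map2k5, which encodes MEK5, had means of -0.25 at 1 week and 0.05 at 6 weeks, and Mapk7, which encodes ERK5, -0.19 and -0.09. Single arrays of Mapk7 ran from -1.21 to 0.40 at 1 week. The spots of both differed by over 2 log2 units on at least 1 array, so these values carry little weight. Mef2a had 0.04 and 0.01 and Mef2c 0.09 and -0.07.

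Krit1 and Pdcd10 encode parts of the CCM complex, which holds down MEKK3 signalling to Klf2 and Klf4 in endothelium. Pdcd10 had 0.27, 0.33 and 0.46 at 1 week and 0.91, 0.23 (dye-reversed) and 0.48 at 6 weeks, and Krit1 had means of 0.48 and 0.23. Sirt1, a deacetylase reported to support Klf2, had 0.25, 0.76 and 0.86 at 1 week and 0.55, 0.47 and 1.05 at 6 weeks. These 3 were the only measured genes of the upstream list that were positive on all 6 arrays, 3 of 17 against 3.24% of named genes. Other negative regulators of the list had mixed signs, with means of -0.07 and -0.59 for Smurf1, 0.09 and 0.02 for Hdac5 and -0.04 and 0.19 for Hdac7. Their spots were up to 2.57, 1.82 and 1.15 log2 units apart, so these values carry little weight. The 6-week mean of Smurf1 was made by -2.61 on replicate 1 against 1-week control. At 6 weeks Pdcd10 stood at 0.52 ± 0.18 and Sirt1 at 0.78 ± 0.25, with adjusted p of 1 each. The smallest p-values of the list also included Kdr, the main VEGF receptor, at -0.56 ± 0.35 and Krit1 at 0.23 ± 0.20.

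Genes reported to be raised by KLF2 or KLF4 in endothelium split evenly. Of 27 listed genes 26 were measured, with 13 positive and 13 negative at each time and medians of 0.02 at 1 week and -0.01 at 6 weeks. Timp3, Cyp1b1, Tek and Ptgds were positive on all 6 arrays, 4 of 26 against 3.24% of named genes, and Pi16 was negative on all 6. None passed over all features. Nos3, the nitric oxide synthase of endothelium, had 0.19, -0.51 and -0.08 at 1 week and -0.29, 0.04 and 0.07 at 6 weeks. Its spots were up to 1.27 log2 units apart. Thbd, the anticoagulant receptor thrombomodulin, had -0.04, 0.14 and 2.46 and then 0.27, -0.21 and -0.95, with spots up to 4.95 apart. Neither of these much used readouts of both factors thus had agreeing spots, so their values carry little weight.

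The members of that list with the smallest p at 6 weeks were of both signs. Timp3, an inhibitor of matrix proteases, was at 0.82 ± 0.18, and Cyp1b1, an oxidase of vessels, at 0.82 ± 0.37. Aqp1, the water channel of capillaries, was at -0.56 ± 0.22, and Plpp3, which degrades lysophosphatidic acid, at -0.64 ± 0.31. Timp3 alone, 1 of 26, reached an unadjusted p under 0.05 at 6 weeks, against 2.18% positive over all features. At 1 week, 3 of the list did so on the positive side (Timp3, Tek and Ptgds) and 3 on the negative side (Pi16, Robo4 and Cdkn1a), against 3.53% and 3.12% over all features. The spots of Robo4 and Cdkn1a were up to 3.61 and 1.98 log2 units apart. Pi16, a flow-induced secreted protein, had -0.72, -0.56 and -1.20 at 1 week. It passed among genes with agreeing spots at an adjusted p of 0.0489, in a fit where 102 of 5625 genes (1.81%) passed.

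Genes reported to be lowered by KLF2 or KLF4 were positive more often than negative at 6 weeks. Of 25 listed names, which include older names of Ccn1 and Ccn2, 20 were measured. At 1 week 8 were positive and 11 negative (median -0.03), and at 6 weeks 13 were positive and 7 negative (median 0.19). Over all named genes the medians were -0.01 and -0.01. The 7 include Hk2, with a mean of 0 at 1 week and -0.004 at 6 weeks. An unadjusted p under 0.05 at 6 weeks was reached by 4 of the 20 on the positive side and 1 on the negative, against 2.18% and 1.94% over all features. At 6 weeks none passed over all features or among genes with agreeing spots. At 1 week an unadjusted p under 0.05 was reached by 3 on the positive side and 2 on the negative, against 3.53% and 3.12% over all features, and none passed over all features.

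Ccn2, a matricellular protein, had 0.62, 0.48 and 1.51 at 1 week and 1.16, 1.69 and 1.41 at 6 weeks. Its 6-week mean was 1.42 ± 0.30, with an adjusted p of 0.957. Edn1, the precursor of the vasoconstrictor endothelin-1, had 1.18, -0.10 and 0.48 and then 1.24, 1.53 and 1.16, with a 6-week mean of 1.27 ± 0.33. Il6, an inflammatory cytokine, lay at 0.01, -0.01 and -0.21 and then at 0.88, 0.69 and 1.21, with a 6-week mean of 1.00 ± 0.20. For Il6 the 2 times did not overlap, and for Ccn2 and Edn1 they did. Every 1-week array lay below every 6-week array for Il6, Adamts1 and Cxcl1, 3 of 20 against 4.81% of named genes. Pdgfb and Ccn1 had the reverse order. Adamts1, a metalloprotease, stood at 0.63 ± 0.19 at 6 weeks. Pdgfb, a growth factor for mural cells, was the negative one, at -0.72 ± 0.28.

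The adhesion genes of that list had small positive means at 6 weeks. Vcam1, which captures leukocytes, had 0.06 at 1 week and 0.46 at 6 weeks, and Sele, the endothelial selectin, 0.17 and 0.47. The spots of Sele were up to 1.24 log2 units apart. Selp had means of -0.07 and 0.11, with mixed signs at 6 weeks (-0.63, 0.88 and 0.09). Ccl2, which attracts monocytes, was negative on all 6 arrays, between -1.45 and -0.23. Cxcl1, a neutrophil chemokine named here after its values were seen, was the only measured member of this list with the sign pattern of Klf2, at -1.89, -0.42 and -0.45 and then 0.66, 0.36 and 0.77. Ccn1, the relative of Ccn2, had its higher values at 1 week, with 1.09, 0.67 and 1.21 against 0.53, 0.64 and 0.41. It passed at 1 week among genes with agreeing spots with an adjusted p of 0.0241.

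**Figure D4:**
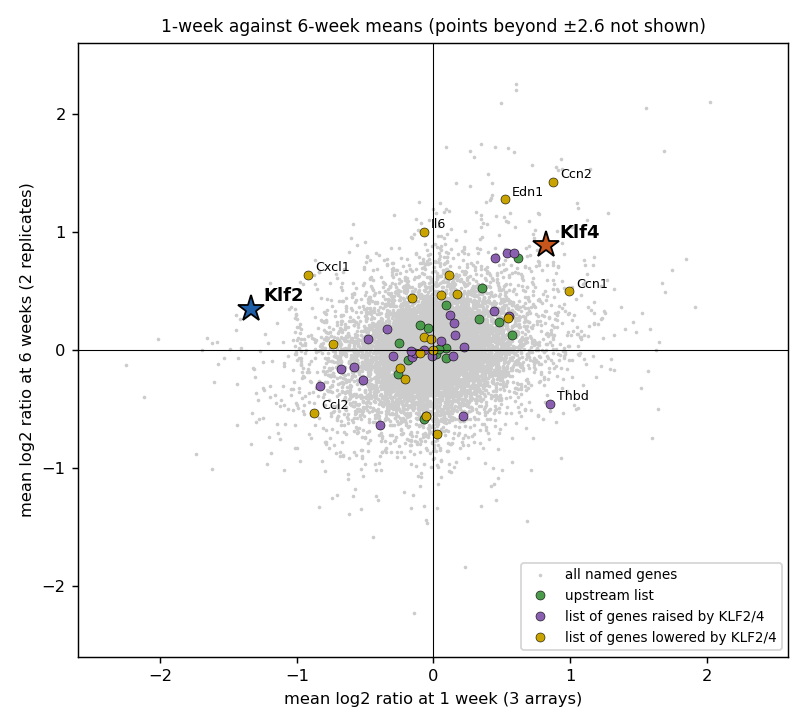
Mean log2 ratio at 1 week (horizontal axis) against the mean at 6 weeks (vertical axis), with each named gene in grey, except 1 beyond 2.6 in size, and genes of the pathway lists in colour. Klf4 lies near 0.83 and 0.89, and Klf2 lies near -1.34 and 0.35, to the left of the genes of those lists.

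Other transcription factors induced by flow or stress held genes near Klf4, and none with a 1-week mean as low as that of Klf2. The lowest was Nfkbia at -0.82, with spots up to 5.73 log2 units apart. Of 30 listed genes 27 were measured, with 13 positive and 14 negative at 1 week (median -0.05) and 17 positive and 10 negative at 6 weeks (median 0.07). Tsc22d3, a leucine zipper protein induced by glucocorticoids and reported to answer to flow, had 1.24, 1.04 and 1.56 and then 1.16, 1.30 and 1.08. Hif1a, the oxygen-regulated factor, had 1.01, 0.92 and 0.79 and then 1.11, 0.41 and 1.25. Like Klf4, both were positive on all 6 arrays. Their 6-week means were 1.16 ± 0.21 and 1.00 ± 0.21, with adjusted p of 0.809 and 0.957 over all features.

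Some immediate early genes had the array order of Klf2 and others did not. Ier2, Fos and Jund, named after their values were seen, had every 1-week array below every 6-week array, as did Junb, Nr4a1 and the Notch target Hey2, 6 of 27 in all against 4.81% of named genes. Jun, Egr1, Egr2, Egr3, Atf3 and Nr4a2 did not, Jun for example with 0.02, -0.64 and 0.12 and then -0.27, -0.08 and 0.38. Ier2 had -0.51, -0.46 and -0.38 and then 0.50, 0.17 and 0.28. Fos had -0.62, -0.04 and -0.09 and then 0.19, 0.37 and 0.33. Jund had -0.69, -0.67 and -0.56 and then 0.52, -0.10 and 0.67. Gata2, an endothelial factor, ran the other way, with 0.99, 0.73 and 0.91 and then -0.04, 0.09 and 0.15. At 6 weeks the smallest p-values of the list included Hey1, a Notch target, at -0.59 ± 0.19 and Ier3, a survival gene, at 0.81 ± 0.26, with none passing. Tsc22d3, Hif1a and Gata2 passed at 1 week among genes with agreeing spots, 3 of the 20 list members in that fit, where 1.81% of genes passed.

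The genes most like each member were found by the uncentred correlation of the 6 log2 ratios, which counts sign as well as shape. Candidates were genes with agreeing spots and a root mean square ratio at least 0.5 times that of the member, 1252 for Klf2 and 1882 for Klf4. For Klf2 the 5 nearest were Psmd6, a proteasome subunit, at 0.99, S100a6, a calcium-binding protein, at 0.98, Cbfa2t3, a transcriptional corepressor, at 0.97, Gpx1, a peroxidase, at 0.97 and Cd302, a lectin receptor, at 0.96. Psmd6 had -1.24, -0.86 and -0.86 and then 0.14, -0.03 and 0.33. Its 1-week values were all nearer to 0 than those of Klf2, and its 6-week mean was 0.19.

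For Klf4 the 5 nearest were Mbnl1, a splicing regulator, Adam9, a membrane protease, and Ybx3, a cold shock protein, each at 0.98, and Tsc22d3 and Armcx2 at 0.97. Adam9 came nearest in size, with 0.68, 0.69 and 0.91 and then 0.66, 0.73 and 0.80. The correlations are over 6 arrays that share RNA or dye orientation in part, and are given as a description.

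**Figure D5:**
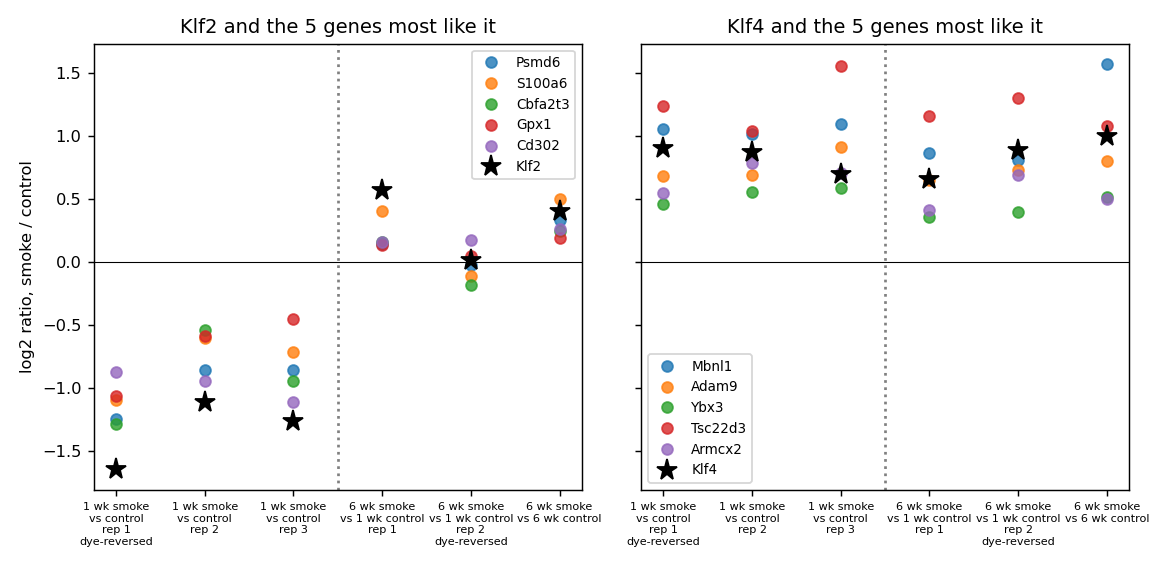
Log2 ratio of smoke over control (vertical axis) on the 6 arrays (horizontal axis) for Klf2 (left) and Klf4 (right) as stars, with the 5 genes most like each as points. The genes beside Klf2 are negative at 1 week and lie between -0.18 and 0.50 at 6 weeks, and those beside Klf4 are positive on all 6 arrays.

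Klf2 is also abundant in resting lymphocytes, and a ratio in sorted cells holds every cell in the gate, so markers of other cells were read beside it. In such bulk RNA, fewer cells of a type and less RNA per cell cannot be told apart. Levels could not be set against background, so the presence of a marker was not assessed and only its ratio is given. Of 14 lymphocyte markers 10 were measured, 9 of them negative at 1 week, with a median of -0.10 and array medians between -0.28 and -0.00. At 6 weeks 5 were positive and 5 negative, with array medians between -0.50 and 0.11. None had an unadjusted p under 0.05 at either time. Ms4a1, the B cell surface protein CD20, named after its values were seen, had the sign pattern of Klf2, with -0.11, -0.18 and -0.78 and then 0.37, 0.05 and 0.18. Its spots were up to 5.64 log2 units apart. The lymphocyte markers' part in the Klf2 ratio was not tested.

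Endothelial markers were mixed. Of 20 listed 15 were measured, with 7 positive and 8 negative at 1 week (median -0.05) and 5 positive and 10 negative at 6 weeks (median -0.26). Calcrl, the adrenomedullin receptor, was positive on all 6 arrays at 1.00 to 1.94 and passed at 6 weeks among genes with agreeing spots, with an adjusted p of 0.0219. With the 6-week dye reversal turned, 0 genes passed in that fit. Cldn5, the tight junction protein, was negative on all 6, between -1.66 and -0.53. Emcn, Eng and Egfl7 were also negative on all 6, and Tek was positive on all 6. An unadjusted p under 0.05 in limma was reached at 1 week by 2 of the 15 on the positive side. On the negative side it was reached by 4 (Cldn5, Eng, Egfl7 and Robo4), where the shares over all features were 3.53% and 3.12%. At 6 weeks it was reached by 1 on each side, against 2.18% and 1.94%. The spots of Robo4 were up to 3.61 log2 units apart. Markers of the other cell types had 1-week and 6-week medians of -0.05 and -0.07 (myeloid, 11 of 14 measured), -0.09 and 0.03 (epithelial, 9 of 11), and -0.09 and 0.06 (fibroblast and smooth muscle, 11 of 12). They had -0.20 and -0.19 for erythroid and platelet markers (6 of 9) and 0.11 and -0.14 for adipocyte markers (6 of 8). In these groups an unadjusted limma p under 0.05 was reached at 1 week by Alas2 (positive) and by Lyz2, Pdgfra and Dcn (negative). At 6 weeks it was reached by Acta2 (positive) and by Lyz2 and Fabp4 (negative), with the shares over all features as above. The spots of Lyz2 and Fabp4 were up to 1.62 and 1.32 log2 units apart. Acta2, the actin of smooth muscle, stood at 1.14 ± 0.26 at 6 weeks. Other smooth muscle markers did not share that size, with 6-week means of 0.47 for Myh11, 0.09 for Tagln, 0.06 for Des and -0.05 for Cnn1. Their part in the Klf4 ratio was not tested.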

How the data were processed

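The deposited table holds 1 value for each of 32448 features on each of 6 arrays of 2 channels. From the values, the authors deposited log2 ratios of folds rounded to hundredths (tolerance 0.02, met by 100% of values on 5 arrays and a rounded 99.99% on the other), with a median near 0 on every array. Scanner, background correction, normalization, filters and dyes are not given in the sources used here.

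A probe table gave 24344 features 1 symbol, 98 several, and left 8006 unnamed. By Entrez identifier 24076 matched RefSeq genes of GRCm38.p6, with 0 symbols differing. Arrays were centred on their median and the spots of a gene averaged, giving 11138 named genes, and 19242 tests with unnamed features. Lists were written from general knowledge.

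In R 4.3.3, limma 3.58.1 (lmFit, then eBayes) tested the 6-week contrast and, for genes other than the pair, the 1-week contrast, using 1 coefficient per exposure time over 5 replicates, 3 residual and 2.39 prior degrees of freedom, two-sided, and Benjamini-Hochberg adjustment at 0.05. The code was tested on simulated data. Alternatives changed signs, centring, scale, spots, filter, replicates, dye term, variance model and each array.

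Genes named are the pair, its family, any gene that passed at 6 weeks, and the 5 most like each member. The 4 smallest p-values at 6 weeks are named for the upstream, raised, lowered, transcription factor and endothelial lists. For the other marker lists they are not all named. Others named were chosen after their values were seen, such as Nos3, Thbd, Ccn1, Ccl2, Gata2, Ms4a1, Smurf1, Jun and Vcam1. The members and lists, and the choice to keep every deposited sign, were made with earlier results of these data known.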

Additional observations from a re-analysis of the deposited data

Results flagged for a closer look

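The ratio of Klf2 was negative on every 1-week array and positive on every 6-week array, a difference of 1.68 log2 units between the means of -1.34 and 0.35. On the 6-week dye reversal it was only 0.01, with spots at -0.03 and 0.06. Among the 167 other measured genes of the lists, 4 had the same sign pattern and 2 the reverse, against 1.25% and 1.51% of all named genes. Cxcl1 differed by 1.55 (-0.92 to 0.64), Ier2 by 0.76 (-0.45 to 0.31), Fos by 0.56 (-0.25 to 0.31) and the lymphocyte marker Ms4a1 by 0.55 (-0.36 to 0.19), whose spots were up to 5.64 apart. The reverse order was found for the endothelial marker Esam, with a difference of -0.59 (0.18 to -0.41), and the erythroid marker Alas2, with -1.48 (0.95 to -0.54). The signs rest on the deposited sign of the dye-reversed arrays. These differences were not tested, since the 1-week values chose Klf2 and the others were picked by their signs.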

How the results depend on the processing

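The signs of the mean ratios of Klf2 and Klf4 held under all alternatives run, but turning the dye reversals changes the sign of those single arrays. At 6 weeks Klf2 ranged from 0.21 to 0.49 and passed in none of 27 alternatives (adjusted p from 0.518 to 1), and Klf4 ranged from 0.44 to 1.02 and passed in 1 of 27 (adjusted p from 0.0426 to 1). That one, chosen after seeing the data, took genes with agreeing spots and the dye swap arrays as separate replicates, with a mean of 0.85. The lowest value of Klf4, 0.44, came with the 6-week dye reversal turned. With both dye reversals turned, the 1-week means became -0.24 for Klf2 and 0.22 for Klf4, with all genes or only those with agreeing spots. The other 22 alternatives moved each 1-week mean by less than its SD. Some of them could not move it, such as those that turned or dropped only 6-week arrays or only filtered genes. In the same way, dropping a 1-week array could not move the 6-week means.

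The count of features passing at 6 weeks was 0 in the main analysis, 12 among genes with agreeing spots and 5 without moderation. Among genes with agreeing spots, alternatives chosen after seeing the data gave 1 without dye-reversed arrays, 38 with the swap arrays separate, and 14 or 18 with the 1-week dye reversal averaged with replicate 2 or 3. The other 21 alternatives gave 0. They include turning the 6-week or both dye reversals among genes with agreeing spots, so the 12 passes there rest on the deposited sign. The number of arrays limits the precision.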
